A study of Mus musculus and Mus musculus
Oryx dammah with 30 samples.

Results

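Detected small nucleolar RNA (snoRNA) genes of mouse nuclear transfer (NT) embryos are described here. They are the genes typed as snoRNA that had a value above 0 in at least 4 of the 6 libraries of the D and DR groups, and 228 of the 1507 snoRNA genes in a table of 53023 genes met this rule. Of the 1507, 1075 were at 0 in all 6 libraries, 96 were above 0 in 1 library, 56 in 2, 52 in 3, 63 in 4, 60 in 5 and 105 in 6. The members were thus chosen by the D and DR values, so these values are given below as a description and were not tested. Levels are in RPM, a gene's reads divided by all counted reads of the library and scaled to 1000000 reads. Just inside the rule stood Mir5117, a gene typed snoRNA despite its symbol, with 3.55, 2.36 and 6.14 RPM in the 3 D libraries, 2.08 in 1 DR library and 0 in the other two. Just outside stood Snora69, above 0 in 3 libraries at 0.96, 0.248 and 0.391 RPM.

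In all groups, nuclei of C2C12, a myoblast line from C3H mice, were transferred into BDF1 embryos (C57BL/6 oocytes, DBA/2 sperm), 2 donor cells per embryo, with arrest by 0.1 µg/mL demecolcine and culture for 24 h. Each library was made from a pool of embryos. The 3 D and 3 DR libraries held 4 four-cell embryos each, and the labels do not say which of them received nuclei before and which after DNA replication. The C2C12 four-cell experiment had 3 libraries with α-amanitin, an inhibitor of RNA polymerase II, and 3 without, from pools of 3 embryos that received nuclei at 46 h post insemination (hpi) and were collected at 70 hpi. The two-cell experiment had 6 libraries with and 6 without α-amanitin, from pools of 5 embryos, with transfer into early (21 hpi) or late (30 hpi) two-cell embryos and collection at 45 or 54 hpi. Its columns form 2 sets, Am with NT and RAm with R, whose names do not say which is early and which is late, and the names NT and R were read as α-amanitin (−) because they lack "Am". Every pool held the recipient embryo's RNA together with that of the donor nuclei, and the gene-level tables do not separate the genomes, and fewer embryo cells cannot be told apart from less RNA per cell.

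SnoRNAs are short nuclear RNAs that guide chemical changes on ribosomal RNA. The C/D box class works with the methyltransferase fibrillarin (Fbl) in 2′-O-methylation, and the H/ACA box class works with the pseudouridine synthase dyskerin (Dkc1). U3, U13 and the U17 pair Snora73a and Snora73b are known for their part in cutting the ribosomal RNA precursor. Most mammalian snoRNAs are trimmed from introns of host genes, often genes for ribosomal proteins or for non-coding RNAs such as Gas5, and mature snoRNAs carry no poly(A) tail, whereas these libraries were primed on poly(A) RNA.

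The sequences that show what was measured were read from the transcripts of GENCODE release M21 (mm10), each on its gene's own strand, 5′ to 3′. The first set holds 3 members described in the two-cell comparisons: Gm24616 (chr16:23111617-23111755, plus strand), Snora47 (chr13:95330600-95330737, plus strand) and Snora21 (chr11:97781639-97781775, minus strand). Capitals mark the ACA within the last 8 bases.
Gm24616: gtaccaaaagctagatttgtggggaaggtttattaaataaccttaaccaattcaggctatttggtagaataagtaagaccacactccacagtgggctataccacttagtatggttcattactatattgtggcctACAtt
Snora47: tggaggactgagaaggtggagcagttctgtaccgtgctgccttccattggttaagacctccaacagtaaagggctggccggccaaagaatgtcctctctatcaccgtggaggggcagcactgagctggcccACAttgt
Snora21: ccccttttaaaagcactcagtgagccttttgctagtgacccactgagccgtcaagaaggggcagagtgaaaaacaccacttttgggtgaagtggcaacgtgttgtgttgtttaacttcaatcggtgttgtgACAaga
The second set shows 2 close relatives in different surroundings, Gm22748 in an Odc1 intron (chr12:17546146-17546281, plus strand) and Gm26205 inside an Rpl6 exon (chr5:121205010-121205143, plus strand). They differ by 21 edits and are 84.6% the same, and capitals again mark the ACA.
Gm22748: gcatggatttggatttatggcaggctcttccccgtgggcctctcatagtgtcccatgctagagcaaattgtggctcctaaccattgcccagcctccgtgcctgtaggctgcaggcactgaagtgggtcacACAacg
Gm26205: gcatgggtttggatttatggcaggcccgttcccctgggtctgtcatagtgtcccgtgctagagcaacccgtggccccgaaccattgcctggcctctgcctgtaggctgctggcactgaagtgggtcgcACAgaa
The third set holds members that were at or close to 0 with α-amanitin: Gm23212 (chr1:161036682-161036741) and Snord78 (chr1:161036984-161037049) from exons of Gas5, both on the plus strand, and Gm24240 (chr17:83269971-83270105, plus strand) and Gm23582 (chr11:21249422-21249560, minus strand), which had no host gene. Capitals mark box C (TGATGA, searched in the first 20 bases) with box D (CTGA, in the last 20 bases), or the ACA. Snord78 has no TGATGA in its window and stands in lower case.
Gm23212: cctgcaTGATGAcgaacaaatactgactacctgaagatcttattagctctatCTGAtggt
Snord78: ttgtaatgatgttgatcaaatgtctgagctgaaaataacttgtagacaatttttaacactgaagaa
Gm24240: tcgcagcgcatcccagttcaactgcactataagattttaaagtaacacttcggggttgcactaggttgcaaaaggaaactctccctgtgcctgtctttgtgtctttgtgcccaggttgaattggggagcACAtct
Gm23582: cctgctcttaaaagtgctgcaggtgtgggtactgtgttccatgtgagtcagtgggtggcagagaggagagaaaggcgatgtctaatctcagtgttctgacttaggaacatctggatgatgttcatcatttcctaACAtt
The last sequence is that of a U3 gene, Rnu3b3 (chr11:87448627-87448841, plus strand), shown because Rnu3b1 to Rnu3b4 share it base for base, so that reads cannot be assigned to 1 of them.
Rnu3b3: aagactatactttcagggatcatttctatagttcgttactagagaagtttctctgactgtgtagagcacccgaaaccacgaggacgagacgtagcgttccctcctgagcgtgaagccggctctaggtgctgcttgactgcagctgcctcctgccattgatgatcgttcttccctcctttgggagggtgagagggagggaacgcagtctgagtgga

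The members were read against the whole class of snoRNA genes by name, sequence and place, none of which the rule used. By symbol, 61 of 108 C/D box genes and 32 of 41 H/ACA box genes were members, against 135 of the 1358 genes whose symbols name no class. Box C and box D in these windows occurred together in 36 of the 61 C/D members (59.0%) and in 68 of all 108 C/D genes (63.0%), and over all classes in 71 of the 228 members and 309 of the 1507 snoRNA genes (20.5%). The letters ACA exactly 3 bases before the end occurred in 26 of the 32 H/ACA members (81.2%) and in 34 of all 41 H/ACA genes (82.9%), and over all classes in 83 of the 228 and 276 of the 1507 (18.3%), so that within these 2 named classes the shares of members and of all genes lay close. Members were 60 to 271 bases long, with a median of 125. For 18 members another snoRNA gene had the same sequence.

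Detection differed most by place. Of 154 snoRNA genes that overlapped an exon of another gene on the same strand, 112 were members (72.7%), against 89 of 507 in an intron (17.6%) and 27 of 846 without a host gene (3.19%). In 99 members the whole snoRNA lay inside a host exon. The 228 members were spread over 118 host genes, and the 19 hosts with at least 3 members held 83 of them. All 10 snoRNA genes of Gas5, all 8 of Snhg1 and all 8 of Taf1d were members, and each overlapped an exon of its host, as did the 5 of Eif4a2, which codes for a translation initiation helicase. Inside an exon a read from the snoRNA and a read from the host transcript look alike in these tables, and their shares were not tested. Of the members' values above 0, 39.9% of 1182 were a whole number of reads (within 0.02 reads), 30.4% for exon members, 51.3% for intron members and 46.0% for those without a host, and 191 were under 1 read. Read numbers in the D and DR and two-cell tables are therefore approximate, and members with a few reads are uncertain.

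**Figure D1:**
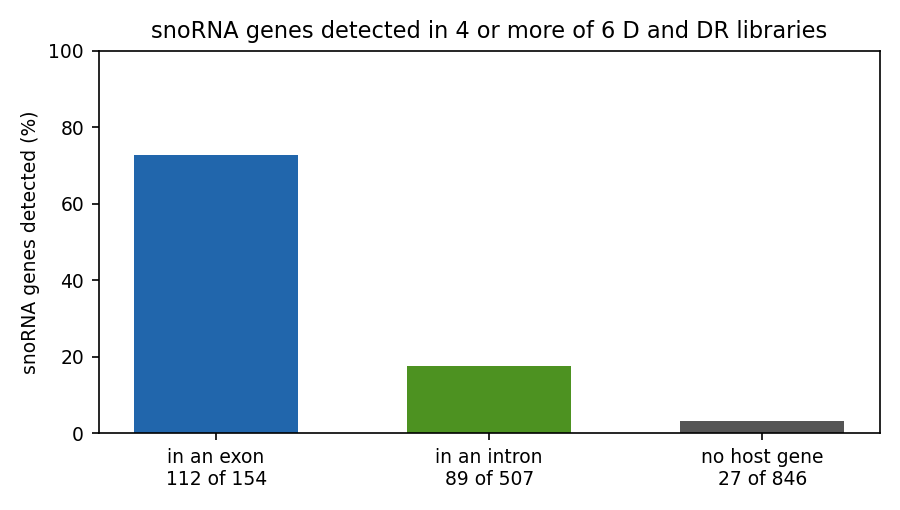
Share of snoRNA genes (%, bars from 0) that were above 0 in at least 4 of the 6 D and DR libraries, by place relative to other genes on the same strand. The share was 72.7% of 154 genes in an exon, 17.6% of 507 in an intron and 3.19% of 846 without a host gene.

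Depth and the makeup of the libraries set the scale of what follows. Counted reads ranged from 2603946 to 19181387 in the D and DR libraries, from 1136771 to 3101002 in the C2C12 four-cell libraries and from 4712268 to 10503779 in the two-cell libraries. Members above 0 numbered 160 to 186 in the DR libraries, 221 to 224 in the deeper D libraries, 27 to 45 in the C2C12 four-cell libraries and 110 to 202 in the two-cell libraries. Embryo and oocyte markers summed to between 1080 FPKM in an RAm library and 16030 FPKM with α-amanitin in the four-cell experiment, most of it from Dppa3 (689 and 15928 FPKM in the same libraries), while Zar1, an oocyte gene, did not exceed 3.36 FPKM and was at 0 in 4 of the 6 four-cell libraries. Markers of the donor myoblasts summed to between 17.9 and 464.5 FPKM. Of these, Myog was at 0 in all two-cell libraries and all four-cell α-amanitin (−) libraries. It was at 17.4 FPKM in D5, 6.90 FPKM in D4, 4.71 FPKM in S18 and 1.73 FPKM in S16. Vim, also listed, was above 2 FPKM in every library. Cumulus cell markers did not exceed 2.39 FPKM.

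Member levels were low and uneven. The median over the 6 D and DR libraries was at least 1 RPM for 51 of the 228 members, and their median was 0.364 RPM. Summed over members, the level was 202, 169 and 322 RPM in DR1 to DR3 and 385, 179 and 374 RPM in D1, D4 and D5, so the groups overlapped. Exon members held 52.3% to 63.0% of it, and the highest member of a library 7.36% to 14.1%.

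The 10 members with the highest medians were 6 of unnamed class, 3 H/ACA members and 1 C/D member. Gm24616 led with 20.5, 5.33 and 45.3 RPM in DR1 to DR3 and 40.7, 10.5 and 27.5 RPM in D1, D4 and D5. It lies in Eif4a2 with only 7.19% of its length inside an exon. Gm22748 had 16.2, 4.63 and 22.9 RPM in DR and 16.9, 7.01 and 15.8 RPM in D. Its host Odc1 codes for ornithine decarboxylase, the enzyme that starts polyamine synthesis. Gm24451, with 75.2% of its length in an exon of Nop56, itself a C/D core protein gene, had 16.6, 1.88 and 26.3 RPM in DR and 15.4, 6.19 and 27.5 RPM in D. In these 3 members the lowest of the 3 values of each group was in DR2 and in D4, the most deeply read library of each group.

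Among the classed members, Snora68, an H/ACA member, had 4.22 to 8.04 RPM in DR and 5.45 to 10.4 RPM in D. Snord17, in an intron of Snx5, had 3.06 to 6.03 RPM in DR and 3.51 to 13.9 RPM in D. Snora73b, from an intron of the Ran exchange factor gene Rcc1, had 5.29 to 6.53 RPM in DR and 4.55 to 9.79 RPM in D. It differs from Snora73a by 7 edits over 205 bases, so reads may pass between them. Snora47, in an intron of Zbed3, was the most uneven of the 10, with 5.17, 0.235 and 13.8 RPM in DR and 4.29, 1.46 and 5.02 RPM in D. Gm25636 (Ipo7 intron), Gm23946 (Timm23) and Gm26205 (Rpl6 exon) had medians of 6.89, 6.17 and 5.59 RPM.

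**Figure D2:**
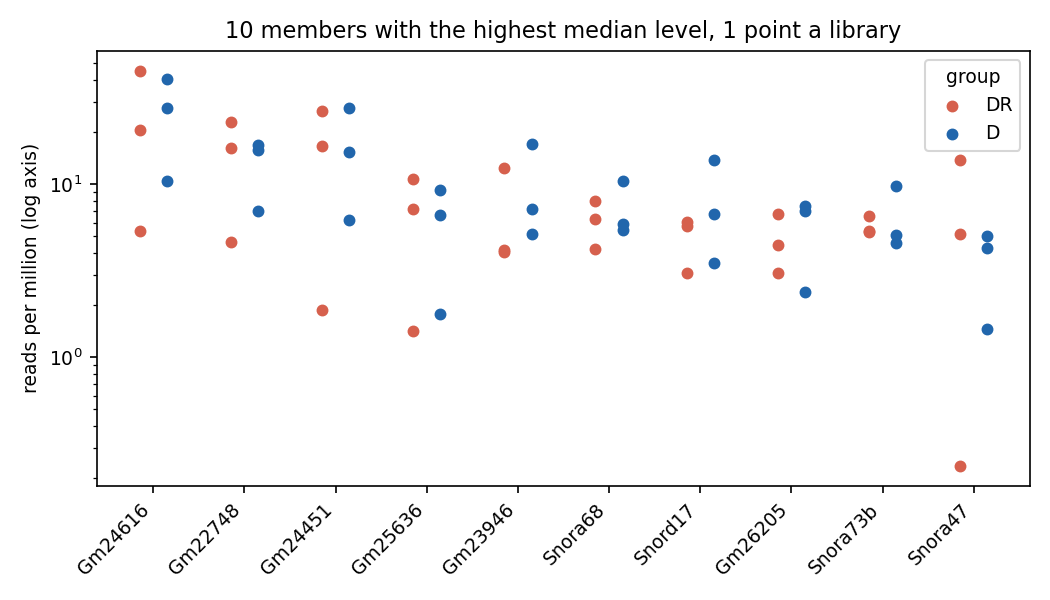
Level in RPM (log axis) of the 10 members with the highest median, 1 point a library, red for the 3 DR and blue for the 3 D libraries. For each member the groups overlap, from 5.33 to 45.3 for Gm24616 and from 0.235 to 13.8 for Snora47.

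D and DR were compared by value and overlap, with no test. Of the 228 members, 56 had at least 1 RPM in at least 3 of the 6 libraries. In 1 of the 56, Mir5117, every D library was above every DR library, where 4.08% of 17072 genes that passed the same limit did so. In 1 other, Snord58b from an intron of Rpl17, every DR library (1.94, 1.76 and 1.44 RPM) was above every D library (1.03, 1.19 and 1.18 RPM), where 7.87% of genes did so. The median difference in log2(RPM + 0.5), D minus DR, was 0.15 for the 56 members and −0.02 for the 17072 genes. Over all 228 members it was 0.30, with the D libraries more deeply read.

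The C2C12 four-cell experiment asks which transcripts depend on transcription by RNA polymerase II after transfer. No member that passed the filter was higher without α-amanitin at an adjusted p under 0.05, and 1, Gm24616, was lower. Of the 228 members, 157 were at 0 in all 6 libraries, among them 107 of the 112 exon members, 35 of the 89 intron members and 15 of the 27 without a host. This table holds whole reads only, and none of the 1279 other snoRNA genes was above 0 in all 6 libraries. Exon members at high levels in the D and DR libraries, such as Snora68 and Gm26205, had no read in any library here, and so did the intron member Snora73b. How reads shared by 2 genes were counted may differ between the tables and was not tested.

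At least 1 RPM in at least 3 libraries was reached by 13 of the 228 members, and these were tested with limma on log2(RPM + 0.5) among 12048 genes. The test called 0 of the 13 higher without α-amanitin, against 10.6% of all genes, and 1 lower, against 0.589%. An unadjusted p under 0.05 was found in 5 of the 13, for which no share of all genes was computed. The median log2 change, α-amanitin (−) minus (+), was −0.50 for the 13 and 0.56 for all genes.

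Gm24616 measured 33.5, 40.5 and 60.4 RPM with α-amanitin and 12.7, 8.74 and 4.16 RPM without, so the groups did not overlap. It fell by 2.41 on the log2 scale (SE 0.54, n = 3 and 3, limma adjusted p = 0.0252). Reads of its host Eif4a2 went the other way, with a log2 change of 1.52 (limma adjusted p = 0.0092). The call on Gm24616 was lost without any 1 of the libraries S18, S8, S15, S17 and S7, and without S16 it stood beside 1 other member. Genes called lower in those fits numbered 8, 45, 2, 3 and 2 in this order, against 71 of 12048 with all libraries. Without S16 they numbered 116 of 11576.

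The other 4 members with an unadjusted p under 0.05 also had lower means without α-amanitin, and limma did not call them. Snora47 had 2.58, 8.80 and 16.4 RPM with and 0.878, 2.19 and 0.462 RPM without α-amanitin (log2 change −2.36, SE 0.85, adjusted p = 0.101). Gm22748 had 12.3, 14.1 and 27.1 RPM with and 6.58, 5.47 and 3.24 RPM without (−1.67, SE 0.60, adjusted p = 0.103). In both the groups of 3 did not overlap. Gm25636 and Snora30 changed by −1.81 (SE 0.68, adjusted p = 0.118) and −1.60 (SE 0.68, adjusted p = 0.157).

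Members with little difference were Snora21, with 0.322, 3.52 and 1.26 RPM with and 1.32, 2.73 and 0.462 RPM without α-amanitin (log2 change −0.01, SE 0.83), Gm24240 (0.00, SE 0.65) and Snord17 (0.09, SE 0.78). With errors of this size a 2-fold difference was not detectable with 3 libraries a group. Summed over the 228 members, the level was 86.7 to 141 RPM with and 33.8 to 79.9 RPM without α-amanitin, and the groups did not overlap. Embryo and oocyte markers summed to 12150 to 16030 FPKM with and 8709 to 9896 FPKM without α-amanitin (median log2 change −0.99 over 8 tested), and myoblast markers to 90.2 to 311 FPKM with and 20.7 to 95.4 FPKM without (−0.91 over 6 tested), and their part in the members' lower sum was not tested. Gm24616 made up to 42.9% of a library's sum, and without it the sums were 53.2 to 80.6 RPM with and 29.6 to 67.2 RPM without α-amanitin and overlapped. Over the members in no exon they overlapped too, at 48.7 to 73.6 RPM and 28.2 to 60.1 RPM. This table lists no spike-in RNA, so a change common to all RNA could not be seen.

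**Figure D3:**
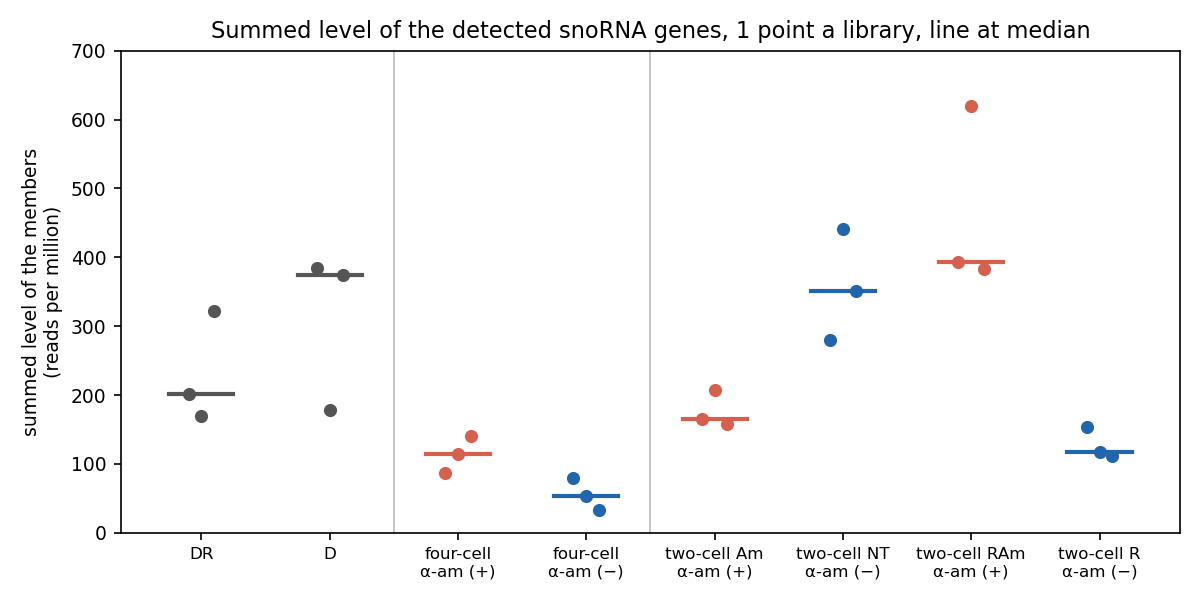
Level summed over the 228 members in RPM, 1 point a library with a line at the median, red with and blue without α-amanitin and grey for D and DR. The sum was lower without α-amanitin in the four-cell and RAm with R columns and higher in the Am with NT columns, while with spike-in scaling its log2 change in RAm with R was 0.17.

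In the two-cell experiment 227 of the 228 members had reads in some library and 33 had reads in all 12. Per counted read the members' summed level went in opposite directions in the 2 column sets, which did not hold with spike-in scaling, so each set is described after the pooled result. Of the members, 64 reached at least 1 RPM in at least 3 libraries, and 22 of the 64 did so in libraries of 1 α-amanitin group only, which fixes the direction in which they can differ. Over all 12 libraries limma called 17 of the 64 higher without α-amanitin, against 34.8% of 19815 genes, and 7 lower, against 7.27%. With the 4 U3 entries among the 7 counted as 1, 4 of 61 (6.56%) were lower. The direction was fixed in this way for 13 of the 17, Snord78, Gm23212, Gm23582, Gm24240, Gm23187, Snord107 and Snord92 among them, and for 5 of the 7, Gm26175 and the U3 entries. The median log2 change was 0.06 for the 64 members and 0.92 for all genes.

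Several of the 17 were at or near 0 in every α-amanitin library. Snord78, a C/D member from an exon of Gas5, had 4.22, 1.43 and 2.31 RPM in NT1 to NT3 and 0.101, 0.648 and 1.47 RPM in the R libraries, and no read in the 6 α-amanitin libraries. Against the limit of 3 reads over that group, its level without α-amanitin was at least 23.7-fold higher (limma log2 change 1.85, SE 0.44, n = 6 and 6, adjusted p = 0.00647). Its neighbour Gm23212 in the same host had 1.52 to 3.95 RPM in NT and 0.352 to 1.01 RPM in R, against at most 0.161 RPM with α-amanitin (limma log2 change 1.73, SE 0.39, adjusted p = 0.00547). In neither gene did the libraries with and without α-amanitin overlap.

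The level of Gas5 as a whole was 67.2 to 90.3 FPKM in RAm and 53.6 to 81.7 FPKM in R, and 70.5 to 90.1 FPKM in Am and 90.4 to 117 FPKM in NT. For the host the groups of RAm and R therefore overlapped and those of Am and NT did not, with NT higher. Of the 10 members in Gas5, 4 were tested over all 12 libraries, and Snord78, Gm23212 and Gm22357 (1.34, SE 0.43, limma adjusted p = 0.0248) were called higher without α-amanitin, against 34.8% of all genes and with the direction of all 3 fixed by the filter, while Mir5117, listed there as Gm50452, was not called (0.41, limma adjusted p = 0.465). The limma change of Gas5 was −0.10 (SE 0.22, adjusted p = 0.703) in RAm with R and 0.28 (SE 0.20, adjusted p = 0.379) in Am with NT. The difference between host and member was not tested.

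Members without a host gene were also among the 17. Gm23582 had 0.896, 1.52 and 0.461 RPM in NT and 2.16, 1.11 and 1.74 RPM in R and no read with α-amanitin, at least 20.6-fold higher (limma log2 change 1.78, SE 0.32, adjusted p = 0.00161). Gm24240 had 0.923 to 2.82 RPM in NT and 0.804 to 3.07 RPM in R, against 0.637 RPM in Am1 and 0 in the other 5 α-amanitin libraries (2.08, SE 0.39, limma adjusted p = 0.00202). Snora57, an H/ACA member, had 3.52, 4.58 and 6.64 RPM in NT and 2.18 to 4.20 RPM in R, against 0.637 to 1.18 RPM in Am and 0.572 to 1.96 RPM in RAm (1.55, SE 0.39, limma adjusted p = 0.00847). The groups did not overlap in any of these 3, and Snora57 was the 1 member that limma called higher in both sets tested alone. It is 96.0% the same as Gm26132, with 6 edits.

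Further members of the 17 lay in exons or introns of protein-coding hosts. Gm26293 in Nop58, a C/D core protein gene, had 0.725 to 3.33 RPM in NT and 1.23 to 2.46 RPM in R, and 1.91 RPM in Am1 with at most 0.0536 RPM in the other α-amanitin libraries (limma log2 change 1.72, SE 0.46, adjusted p = 0.0111), so that Am1 alone lay within the range without α-amanitin. Gm23187 in Nop56 (1.55, SE 0.35, adjusted p = 0.00539 by limma) and Snord107 in Gm38393 (1.57, SE 0.33, adjusted p = 0.00366 by limma) had no read in RAm. The intron members Snord92 in Wdr43 (1.51, SE 0.32, adjusted p = 0.00407 by limma) and Snord8 in Chd8 (1.48, SE 0.47, adjusted p = 0.0232 by limma) also had none there. Of the 10 exon members called higher, 6 had a host that was called higher too, as did 21 of all 29 tested exon members.

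The 7 members called lower without α-amanitin were Gm26175, Snord13, Snora21 and 4 gene entries of U3. Without RAm1 this count was 1 of 58, where 1007 of 19436 genes were called lower. Without RAm2 it was 1 of 55, where 1027 of 19473 genes were, and without Am3 11 of 63, where 1695 of 19554 were. Gm26175, in an intron of Tmf1, had 4.02, 4.47 and 4.15 RPM in RAm against 0.103, 0 and 0 RPM in R, and 0.322 to 1.18 RPM in Am against 0 to 0.264 RPM in NT (limma log2 change −2.03, SE 0.50, adjusted p = 0.00773). In both sets all α-amanitin libraries lay above the others. Snord13, the U13 gene, had 5.22 to 12.7 RPM over the 6 α-amanitin libraries, 2.43 to 7.65 RPM in NT and 0.409 to 2.11 RPM in R (−1.59, SE 0.55, limma adjusted p = 0.0323), and overlapped between Am and NT but not between RAm and R. Snora21 changed by −1.45 (SE 0.51, limma adjusted p = 0.0338), with 5.95 to 9.02 RPM in Am and 6.69 to 8.77 RPM in NT, so that the call rests on the RAm and R libraries. With spike-in scaling Snord13 (−0.41, limma adjusted p = 0.514) and Snora21 (−0.15, limma adjusted p = 0.782) were no longer called. The U3 genes Rnu3b3 and Rnu3b4, each listed under 2 gene IDs, measured 0.418 to 1.60 RPM with and 0 to 0.307 RPM without α-amanitin (−1.38 and −1.37, SE 0.32, limma adjusted p = 0.00603 and 0.00628). These groups did not overlap in either set, and the 4 entries share sequence and reads and count as 1 observation. In the D and DR libraries Rnu3b3 was at 3.90 RPM in D1 and at most 0.427 RPM elsewhere, and in the four-cell libraries it had no read.

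**Figure D4:**
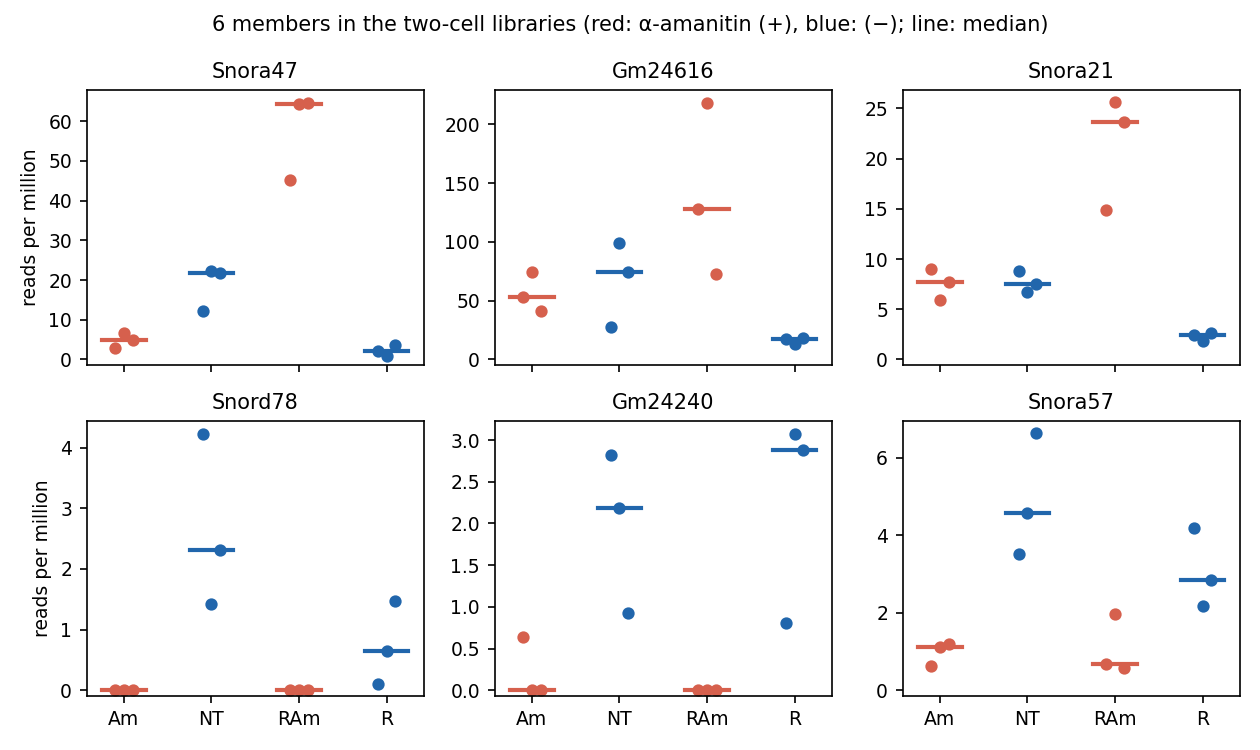
Level in RPM of 6 members in the 12 two-cell libraries, 1 point a library with a line at the median, red with and blue without α-amanitin. Snora47 was lower in Am than in NT but far higher in RAm than in R, while Snord78, Gm24240 and Snora57 were higher without α-amanitin in both sets.

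In Am with NT alone, 34 members reached 1 RPM in 3 libraries and limma called 5 higher without α-amanitin, against 8.53% of 17059 genes, and 0 lower, against 2.88%. An unadjusted p under 0.05 was found in 16 of the 34, for which no share of all genes was computed. The 5 were Snord78 (log2 change 2.56, SE 0.49, adjusted p = 0.0218), Gm23212 (2.30, SE 0.48, adjusted p = 0.0283), Snora47 (1.90, SE 0.44, adjusted p = 0.0353), Snora57 (1.85, SE 0.45, adjusted p = 0.0411) and Gm26205 (1.66, SE 0.42, adjusted p = 0.0447), all by limma with n = 3 and 3. Snord78 and Gm23212 were among 5 of the 34 that reached 1 RPM in NT only, so their direction was fixed by the filter. The median log2 change was 1.20 for the 34 and 0.33 for all genes. The summed level was 158 to 207 RPM in Am and 280 to 441 RPM in NT, without overlap. Beside it, myoblast markers summed to 67.1 to 92.0 FPKM in Am and 80.2 to 464.5 FPKM in NT (median log2 change 1.51 over 5 tested, 1 called higher), and Col3a1, a collagen gene of that list, was 0.83 to 1.70 FPKM in Am and 12.4 to 45.3 FPKM in NT; their part in the higher sum was not tested. With no filter on low values the same 2 counts were 5 and 0 of 227 members, against 1.19% and 0.286% of 38827 genes.

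In RAm with R alone, 38 members were tested and limma called 7 higher without α-amanitin, against 54.2% of 16997 genes, and 24 lower, against 14.6%. With no filter 30 of 227 were called higher, against 24.9% of 38827 genes, and 47 lower, against 5.92%. The median log2 change was −1.76 for the 38 and 1.61 for all genes. The summed level was 383 to 620 RPM in RAm and 111 to 154 RPM in R, again without overlap but in the opposite order. With spike-in scaling the 2 groups overlapped, at 175 to 378 in RAm and 218 to 334 in R. Beside it, embryo and oocyte markers had a median log2 change of −2.66 with 7 of 9 called lower and 2 higher. Their sum, however, was 1080 to 1605 FPKM in RAm and 7240 to 9031 FPKM in R. Myoblast markers summed to 41.7 to 53.7 FPKM in RAm and 17.9 to 85.1 FPKM in R. Their median log2 change was −1.08 over 4 tested, with 1 called higher and 1 lower. Col3a1 of that list was 0.61 to 1.01 FPKM in RAm and 6.68 to 24.4 FPKM in R. The part of these markers in the lower sum was not tested. The 7 members called higher were Gm26293, Gm23582, Snord8, Snord42b, Snord104, Snora15 and Snora57, and the first 4 and Snora15 reached 1 RPM in R only. Of the 24, 10 reached 1 RPM in RAm only, so the direction of these 15 calls was fixed by the filter. Of the 24, 12 were exon members and 10 intron members. The change was largest in Snora47, with 45.2, 64.3 and 64.5 RPM in RAm and 3.70, 2.11 and 0.921 RPM in R (log2 change −4.53, SE 0.46, n = 3 and 3, limma adjusted p = 0.000219).

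Snora21, in an intron of the ribosomal protein gene Rpl23, had 14.9, 25.6 and 23.6 RPM in RAm and 2.68, 2.41 and 1.84 RPM in R (log2 change −2.93, SE 0.38, limma adjusted p = 0.000539). Gm24616 in Eif4a2 had 128, 219 and 72.7 RPM in RAm and 18.0, 17.8 and 13.5 RPM in R (−2.92, SE 0.41, limma adjusted p = 0.000821). Gm26205 in Rpl6 had 8.26, 13.6 and 9.74 RPM in RAm and 3.81, 2.26 and 3.15 RPM in R (−1.62, SE 0.39, limma adjusted p = 0.00876), and its relative Gm22748 in Odc1 changed by −1.56 (SE 0.54, limma adjusted p = 0.0378). In each of these 4 the RAm libraries all lay above the R libraries.

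Hosts of these members were measured in the same set, in which 54.2% of all genes were called higher and 14.6% lower. Of the 12 exon members called lower, 11, from 8 hosts (3 of them from Eif4a2 and 2 from Eif4a1), had a host called higher, as did 16 of all 18 tested exon members. The remaining one, Gm22884, had the same reads in all 12 libraries as its host Gm12238, which therefore gave no separate value. Of the 10 intron members called lower, 6 had a host called higher and 2 a host called lower, against 11 and 2 of all 15 tested intron members. These counts are per counted read. With spike-in scaling limma called 3 of the 18 exon members lower and 5 higher, against 4.46% and 77.7% of all genes. The median log2 change of the exon members was then −0.07 in place of −1.71. Of the 20 members outside exons, 6 were called lower and 6 higher on that scale. Rpl23 was 19.2 to 32.2 FPKM in RAm and 236 to 273 FPKM in R (log2 change of its RPM 3.42, limma adjusted p = 7.2e-05), against the fall of Snora21 in its intron. Eif4a2 was 8.82 to 22.8 FPKM in RAm and 42.4 to 63.2 FPKM in R (2.08, limma adjusted p = 0.00305). Zbed3, the host of Snora47, went with its member in this set, at 64.2 to 152 FPKM in RAm and 17.4 to 33.2 FPKM in R (−2.09, limma adjusted p = 0.00255). In Am with NT, however, Zbed3 fell (−1.81, limma adjusted p = 0.0172) while Snora47 rose.

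The change with α-amanitin differed between the sets for 33 of the 64 members in limma's interaction test, RAm with R minus Am with NT, with 32 called below 0, against 6.41% of 19815 genes, and 1 called above 0, Snord42b, against 31.0%. Snora47 had the largest difference (−6.43, SE 0.64, adjusted p = 3e-05 by limma). It was followed by Snora30 (−4.42, SE 0.52, adjusted p = 8.5e-05 by limma), another H/ACA member, and Gm22620 from an exon of Taf1d (−3.87, SE 0.72, adjusted p = 0.00165 by limma). In Snord42b, from an exon of Rpl23a, the difference was 1.70 (SE 0.56, limma adjusted p = 0.0331). By place, 16 of 29 exon members, 15 of 28 intron members and 1 of 7 without a host were called below 0. With no filter on low values, 227 members could be fitted, and 41 were called below 0, against 2.79% of 38827 genes, and 2 above, against 13.8%.

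**Figure D5:**
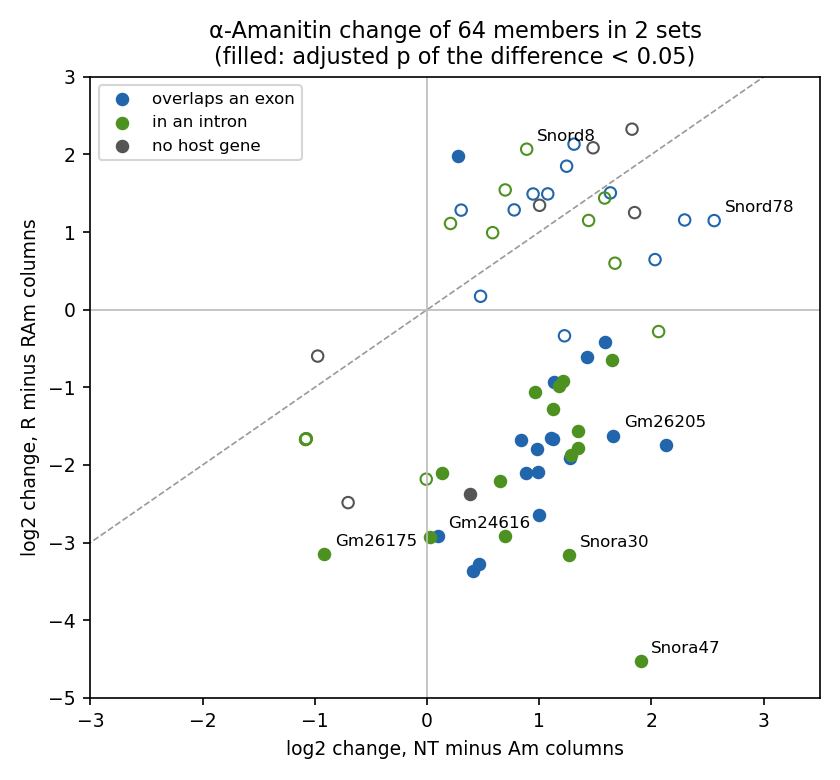
Log2 change without minus with α-amanitin of the 64 tested members in the 2 two-cell column sets, Am with NT on the x axis and RAm with R on the y axis, with the line of equal change dashed. Filled points are the 33 members whose change differed between sets by limma, and 32 of them lie below the line, Snora47 lowest at −4.53.

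The values above are per counted read. Spike-in RNAs took 2.38% to 11.3% of two-cell reads, with 8.77% to 11.3% in RAm and 2.38% to 2.81% in R, and scaling to them moved the median log2 change of all genes from 1.61 to 3.13 in RAm with R and from 0.33 to 1.05 in Am with NT. On that scale limma called 11 of 38 members higher and 9 lower in RAm with R, against 77.7% and 4.46% of genes, and 15 of 34 higher and 0 lower in Am with NT, against 24.2% and 0.528%. Over all 12 libraries 30 of 64 members were then called higher and 5 lower, against 68.3% and 1.39% of genes. The difference between sets was called by limma below 0 in 18 and above 0 in 1 of the 64 members, against 1.98% and 44.9% of genes. Snora47 kept a log2 change of −2.70 (SE 0.51, limma adjusted p = 0.00155) in RAm with R, and Snora21 one of −1.09 (SE 0.41, limma adjusted p = 0.0369). Gm24616 lost its call there (−0.93, SE 0.50, limma adjusted p = 0.116), and Gm22748 changed sign (0.37, SE 0.59, limma adjusted p = 0.574). The log2 change of the members' summed level, −1.85 per counted read, became 0.17.

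Proteins that carry, assemble or trim snoRNAs were measured in the same libraries. In RAm with R, limma called all 4 C/D core genes, all 4 H/ACA core genes, all 9 assembly factor genes and all 5 genes of U3-bound proteins higher without α-amanitin, and 9 of 10 processing factor genes, with Parn at 1.66 (SE 0.99, adjusted p = 0.174), where 54.2% of all genes were called higher. Fbl changed by 2.56 (SE 0.52, adjusted p = 0.00397 by limma), Dkc1 by 3.49 (SE 0.25, adjusted p = 7.7e-05 by limma) and the assembly factor Znhit3 by 7.97 (SE 0.23, adjusted p = 2.4e-05 by limma). In Am with NT the counts were 0 of 4, 0 of 4, 2 of 9, 1 of 5 and 1 of 10, against 8.53% of all genes. With spike-in scaling they were 4 of 4, 1 of 4, 2 of 9, 2 of 5 and 3 of 10 there, against 24.2% of all genes. In the four-cell experiment 3 processing factor genes were called higher, Tgs1 (5.01), Dbr1 (3.58) and Coil (1.95), which are known for cap methylation, lariat debranching and Cajal bodies, against 10.6% of all genes, and none of the other lists held a call. Beside these values stands that 7 of 9 embryo and oocyte markers were called lower and 2, Dppa3 and Zp3, higher without α-amanitin in RAm with R, or 3 lower and 2 higher with spike-in scaling, and the part of such maternal RNA in the member changes was not tested.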

How the data were processed

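RNA of pooled NT embryos was amplified with the SMART-seq v4 kit, made into Nextera libraries and sequenced as read pairs. The authors trimmed reads (Trimmomatic, Trim Galore, Cutadapt), mapped them to mm10 with STAR and deposited FPKM per gene, and featureCounts stands in the submitters' processing notes, with versions and annotation not given in the sources used here. The deposited FPKM were multiplied by the listed gene length to give RPM and reads; all values were whole reads, within 0.02 reads, in the C2C12 four-cell table and 40.8% to 50.8% of them in the others, where reads are approximate. Libraries were placed by column name. In the replication table, further library columns (4), which match no sample, were not used, and Oryx dammah libraries were not analysed here, and 1 host gene is not reported here.

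Members and gene lists were chosen with earlier results of these data known. Places came from the exon coordinates deposited with the FPKM in the replication table, and sequences from GENCODE release M21. The 228 members were found in each table by gene ID. On log2(RPM + 0.5), limma (version 3.58.1, under R 4.3.3) was run with Benjamini-Hochberg adjustment over all genes of at least 1 RPM in at least 3 libraries; calls had an adjusted p under 0.05. Folds depend on the added 0.5 where a group is near 0. A group without reads was put at 3 reads over the group, which covers counting error only. The procedure was tried on simulated libraries, with known changes in genes averaging above 1 RPM and no effect of column set. That trial does not cover members of a few reads. Named were the 10 members of highest median level, up to 10 called members per direction and contrast, the 8 with reads in every library, up to 3 on each side of the detection rule, and host and listed genes. Separate pools are replicates, and the study describes its replicates as biologically independent. Alternatives were the pseudocount, the filter, scaling, FPKM, voom weights, a replicate block and leaving out each library; the separate column sets, their interaction and the spike-in scaling (47 spike-ins) were chosen after seeing the data.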

Additional observations from a re-analysis of the deposited data

Results flagged for a closer look

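In the two-cell groups of 6 libraries, 64 groups of named members and the 2 groups' summed levels were examined with Dixon's test for 1 library far from the rest, which chance alone flags in about 1 of 20 groups, and 8 stood out. With α-amanitin these were Gm26293 in Am1 (1.91 RPM), Snord8 in Am2 (1.61 RPM), Gm24240 in Am1 (0.637 RPM), Gm23187 in Am3 (0.592 RPM), Snord107 in Am3 (0.507 RPM) and Snord92 in Am2 (0.322 RPM), each beside libraries at or near 0. Without α-amanitin they were Snord17 (3.52 RPM) and Snord107 (2.24 RPM), both in NT2. For Snord8, Gm24240, Snord92 and for Snord107 with α-amanitin the other 5 libraries were all at 0, where any value above 0 passes this test and the rate of 1 in 20 does not hold, and the last 3 of these rest on 3 reads each. The groups also pool the 2 column sets.

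The change with α-amanitin differed between the 2 two-cell column sets for 33 of the 64 tested members by limma's interaction test, and 13 of these are named members. The difference in log2 change, RAm with R minus Am with NT, was −6.43 for Snora47, −3.28 for Gm26205, −3.16 for Gm24336, −3.08 for Gm24451, −3.02 for Gm24616, −2.96 for Snora21, −2.90 for Gm22748, −2.76 for Gm23946, −2.29 for Gm24119, −2.23 for Gm26175, −2.16 for Snora73b, −2.03 for Mir5117 (listed as Gm50452 in that table) and −2.01 for Snora68.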

How the results depend on the processing

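Counts of called members moved under these alternatives, and the causes were not tested. Shares of all genes called stand in brackets or were given above. In the four-cell experiment limma on log2(FPKM + 1) called 6 of 36 members (1 higher, 5 lower without α-amanitin) [11.1% and 1.13%]. Leaving out 1 library gave 0 to 2 calls (0 to 2 lower), where 19 to 1845 genes were called higher and 2 to 116 lower. Of the 11 tested members in no exon of another gene 0 were called in the main fit [10.6% and 0.589%]. In the two-cell experiment 24 of 64 were called (17 higher, 7 lower). FPKM gave 70 of 203 (54 higher, 16 lower) [38.9% and 8.51%] and no filter 43 of 227 (34 higher, 9 lower) [13.9% and 2.71%]. A filter of 5 RPM gave 3 of 13 (0 higher, 3 lower) [42.4% and 9.84%]. An added 4-fold criterion gave 2 (1 higher, 1 lower), for which no share of all genes was computed. Median-of-ratios scaling gave 11 higher and 10 lower [18.8% and 12.6%], and spike-in scaling 30 higher and 5 lower [68.3% and 1.39%]. Of the members in no exon, 14 of 35 were called in the main fit (7 higher, 7 lower) [34.8% and 7.27%]. Leaving out 1 library gave 1 to 11 lower, where 1007 to 1720 genes were called lower. Am with NT alone gave 5 calls (5 higher, 0 lower), also with no filter, and 15 with spike-in scaling (0 lower). RAm with R alone gave 7 higher and 24 lower, with no filter 77 (30 higher, 47 lower), and with spike-in scaling 11 higher. The number of members was 105 if all 6 columns had to be above 0, 49 if at least 5 reads were needed and 116 outside exons. With spike-in scaling the log2 change of the summed level was 0.99 in place of −0.42 over all two-cell libraries, 1.81 in place of 1.00 in Am with NT and 0.17 in place of −1.85 in RAm with R.

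Some members changed sign. In the four-cell experiment these were near 0: Snord17 (0.09) was −0.17 with median-of-ratios scaling, −0.063 with voom weights and −0.44 to 0.51 with a library left out; Gm24240 (0.00) was 0.0067 with a pseudocount of 2 RPM and −0.16 to 0.27 with a library left out; Snora21 (−0.01) was 0.031 on FPKM, 0.040 with a pseudocount of 0.1 RPM, 0.16 with voom weights and −0.58 to 0.57 with a library left out. In the two-cell experiment, Am with NT alone (same values with no filter), and after the comma with spike-in scaling, gave 0.10, 0.90 for Gm24616, 1.34, 2.12 for Gm22748, 0.99, 1.78 for Gm24451, 1.11, 1.68 for Gm23946, 1.90, 2.64 for Snora47, 0.029, 0.79 for Snora21 and 1.28, 1.88 for Gm24336, and spike-in scaling gave 0.044 for Snord13. RAm with R alone, also with no filter, gave −0.42 for Snora68, −1.62 for Gm26205, −0.98 for Snora73b and −0.64 for Gm24119, and with no filter −0.61 for Mir5117. Spike-in scaling of all libraries gave 1.25 for Gm22748, 0.83 for Gm24451, 0.77 for Gm23946 and 0.78 for Gm24336, and of RAm with R 0.37 for Gm22748. Median-of-ratios scaling gave −0.17 for Snora68, −0.75 for Gm26205, −0.62 for Snora73b, −0.13 for Gm24119 and −0.13 for Mir5117. With a library left out Gm22748 ranged from −0.41 to 0.24, Gm26205 from −0.27 to 0.29 and Snora73b from −0.16 to 0.31. Of 840 values for single members under an alternative, 688 kept their direction and side of the threshold, 41 gained a call, 47 lost one and 64 changed sign.

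Same-numbered two-cell libraries did not deviate together (correlations across genes 0.0044 to 0.058), so they were not treated as pairs. With the replicate block 21 of 64 members were called (16 higher, 5 lower) [30.2% and 6.53%], and Snord13 and Snora21 lost their calls (adjusted p = 0.0515 and 0.0836 by limma). No paired analysis was possible in the four-cell experiment because its columns do not carry the labels' replicate numbers. Voom weights were not run on the two-cell table, whose reads are not whole, and a term for early and late recipients could not be set because the columns do not name the stage; with a term for the column set, added after seeing the data, 27 of 64 members were called (19 higher, 8 lower) [40.8% and 9.50%]. Depth limits members of a few reads.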
